A study of Homo sapiens with 24 samples.

Results

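The 12 libraries made 12 h after transfection of H2052 cells, out of 24 libraries in the series, were used to ask which transcripts were retained with biotinylated miR-497-5p beyond what their amount in the cells accounts for. H2052 is an established human line of pleural mesothelioma cells, which arise in the membrane around the lung. Cells had received 20 nM of a mimic with biotin at its 3′ end, carried by the lipid reagent Lipofectamine RNAiMAX. The sequence transfected was miR-497-5p (written miR-497-5p-RE in the labels, a suffix they do not spell out) or a scrambled non-targeting control that carried biotin as well. In the pull-down, cytoplasmic extract was held with streptavidin beads for 4 h, and the retained poly(A) RNA was sequenced. The RNA-seq libraries hold poly(A) RNA of the input. The 4 groups of 3 libraries were the pull-down with miR-497-5p, the pull-down with the control mimic, RNA-seq with miR-497-5p and RNA-seq with the control mimic. All 12 libraries were chosen by assay, mimic and time, without use of any measured value. The model is 1 cell line in monolayer, with mimic supplied from outside the cell, and no label ties the libraries of a group to separate cultures. The p-values therefore measure spread between libraries that may be technical.

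The quantity reported is a difference of log2 fold changes, namely the effect in the pull-down less that in RNA-seq, where each effect is miR-497-5p over control within its assay. A difference above 0 means that a transcript was higher in the miR-497-5p pull-down than the input would give, and a difference below 0 that it was lower. Genes are called higher or lower at an adjusted p under 0.05 in edgeR's quasi-likelihood test, with Benjamini-Hochberg adjustment over the 17078 genes tested, and every adjusted p below is from that test unless another is named. CPM are counts scaled to a common library total with TMM factors, and ± after a log2 value is a standard error.

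A microRNA is loaded into an Argonaute protein and recognises messenger RNAs mainly through its seed, bases 2 to 8 counted from the 5′ end, which pairs with matching words in 3′ untranslated regions (3′ UTRs). The Argonaute complex recruits TNRC6 proteins and deadenylases, so bound messages are usually both retained with the microRNA and lowered in amount. miR-497-5p belongs to the miR-15/16 family, whose members share 1 seed and are known for repressing cyclins, CDKs and other cell cycle genes.

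The guide and its relatives are shown first because their shared seed defines the sites used below. Mature sequences are from RefSeq (GRCh38.p14), with the seed in capitals. miR-497-5p is encoded at chr17:7017979-7017999, minus strand, beside miR-195-5p at chr17:7017667-7017687.
hsa-miR-497-5p: cAGCAGCAcacugugguuugu
hsa-miR-195-5p: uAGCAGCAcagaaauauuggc
hsa-miR-16-5p: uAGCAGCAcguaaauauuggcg
hsa-miR-15a-5p: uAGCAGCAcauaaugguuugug
hsa-miR-424-5p: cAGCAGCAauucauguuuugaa

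Pairing of this seed with a message gives 4 words, searched on the sense strand of the longest annotated 3′ UTR of each gene (GENCODE 44 on GRCh38). They are TGCTGCTA (8mer), TGCTGCT (7mer-m8), GCTGCTA (7mer-A1) and GCTGCT (6mer). The longer words contain the shorter ones, and each gene was put in the class of its best word, in the order 8mer, 7mer-m8, 7mer-A1, 6mer. Sites of 4 genes that were higher in the difference are printed below with the matched word in capitals, followed by the 8mer of SOCS6, which was lower, and the 8mer of CCND1, which was not called. None of these sites spans a splice junction. Of the 14120 tested genes with a 3′ UTR, 5.18% hold an 8mer and 26% an 8mer or 7mer-m8.
WEE1, chr11:9589133-9589153, plus strand: tgccttgtgaattTGCTGCTA
CCNE1, chr19:29824011-29824031, plus strand: tgcgtgctcccgaTGCTGCTA
CCNE1, chr19:29824249-29824269, plus strand: actgttttgtaagTGCTGCTA
CDC37L1, chr9:4706256-4706276, plus strand: attttttttaatgTGCTGCTA
SPRED1, chr15:38353565-38353585, plus strand: ttatatatttgaaTGCTGCTA
SPRED1, chr15:38353955-38353975, plus strand: tgtttaaccacttTGCTGCTA
SOCS6, chr18:70326565-70326585, plus strand: ccgcccagtccttTGCTGCTA
CCND1, chr11:69653302-69653322, plus strand: ctttcacattgttTGCTGCTA

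Total counts were 15771995 to 23916035 in the miR-497-5p pull-down, 18127272 to 18910429 in the control pull-down, 22185600 to 29707303 in RNA-seq with miR-497-5p and 26432049 to 30602007 in RNA-seq with the control. Libraries of a group differed by more than counting error, with chi-square values per degree of freedom between 6.58 and 29.4 in the pull-down and between 2.88 and 7.99 in RNA-seq. The lowest correlation between libraries of a group was 0.953 in the pull-down and 0.991 in RNA-seq. Mesothelial markers were present in every library, with MSLN, a surface protein of mesothelium, at 73.3 to 78.7 CPM in RNA-seq with miR-497-5p and 71.6 to 72.8 CPM in RNA-seq with the control. CALB2, another mesothelial marker, was close to absent, at 1.85 to 1.96 CPM in RNA-seq with miR-497-5p and 1.32 to 2.08 CPM in RNA-seq with the control. The sum of 30 squamous epithelium markers was uneven within groups, at 995, 751 and 98.2 CPM in the miR-497-5p pull-down, 61.3, 213 and 758 CPM in the control pull-down, 1013, 45.3 and 97 CPM in RNA-seq with miR-497-5p and 738, 783 and 275 CPM in RNA-seq with the control.

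The spread between libraries was larger in the pull-down, and it set the error of nearly every difference. The common biological coefficient of variation, the relative SD between libraries of a group beyond counting error, was 0.312 in the pull-down and 0.0831 in RNA-seq, a ratio of 3.75. It depended on level. For the 3336 genes with a mean of 1 to 5 CPM its median was 0.508 in the pull-down and 0.19 in RNA-seq, and for the 2031 genes over 100 CPM it was 0.122 in the pull-down and 0.0671 in RNA-seq. In a separate edgeR fit per assay, a median of 87.3% of the variance of the difference came from the pull-down, with quartiles of 82.9% and 90.3%. Shares of variance given below for single genes and sets are from these separate fits as well. In the separate fits the median standard error was 0.276 for the pull-down effect, 0.0984 for the RNA-seq effect and 0.295 for the difference. In the test used for the calls, the median standard error of the difference was 1.23 for the 2972 genes under 1 CPM. Only 3 of them were called higher and 4 lower. With an error of that size, differences of 2-fold and larger could be missed among such genes. For these reasons each assay was given its own trend of dispersion against level.

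**Figure D1:**
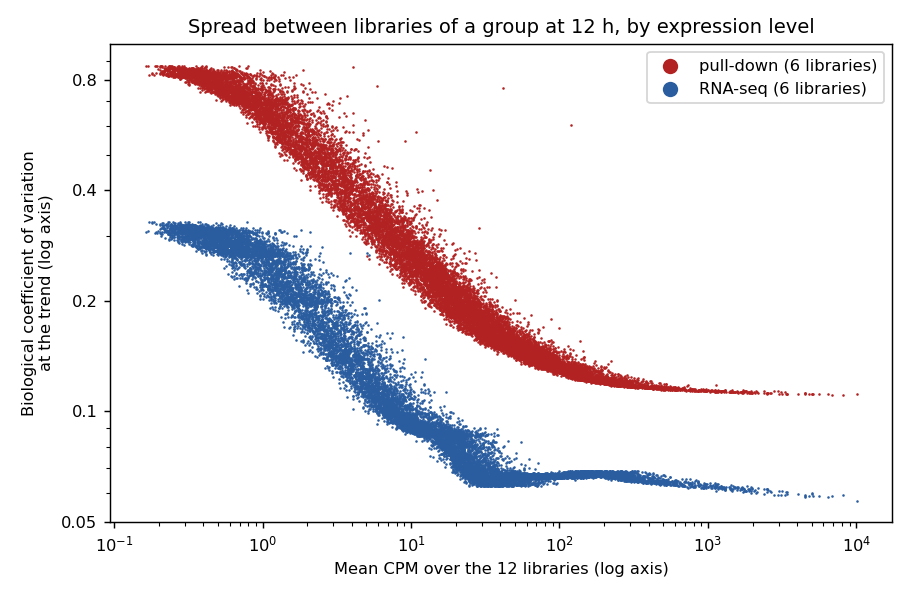
Biological coefficient of variation at the fitted trend (vertical, log axis) against mean CPM over the 12 libraries (horizontal, log axis), 1 point per gene and assay, pull-down in red and RNA-seq in blue. The pull-down lies above RNA-seq at every level, with medians of 0.795 against 0.297 under 1 CPM and 0.122 against 0.0671 over 100 CPM.

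With a dispersion trend per assay, 247 of 17078 genes were higher (1.45%) and 143 were lower (0.837%) in the difference, 2.28% in all, and 2732 had an unadjusted p under 0.05. The median difference over all genes was 0.01. At least 2-fold differences were found for 137 of the higher and 16 of the lower genes. Genes called higher had a median difference of 1.08, made of a median pull-down effect of 0.91 and a median RNA-seq effect of -0.20, and the RNA-seq effect was below 0 for 219 of the 247. Genes called lower had a median difference of -0.49, made of a median pull-down effect of -0.30 and a median RNA-seq effect of 0.20. Of the summed sizes of the 2 effects, without regard to sign, the pull-down gave a median of 80.2% for higher and 61.1% for lower genes. The RNA-seq part was the larger for 20 higher and 35 lower genes. A mean under 5 CPM was found for 47 of the 247 higher genes, 5 of the 143 lower genes and 6308 of the 17078 genes tested. The share of such genes was thus larger among higher than among lower calls, and below that of all genes tested in both. The libraries of the 2 pull-down groups did not overlap for 215 of the 247 and 113 of the 143, against 16.7% of all genes tested. The calls were made on these same libraries, so the larger share follows in part from the selection and is description only.

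**Figure D2:**
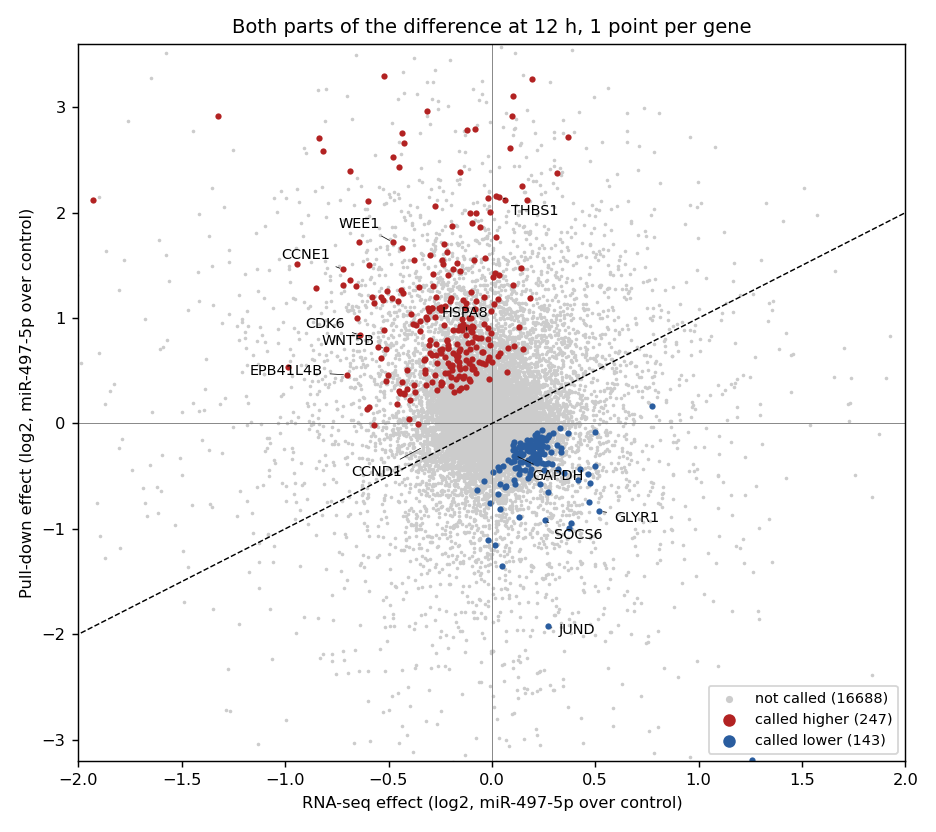
Pull-down effect (vertical, log2) against RNA-seq effect (horizontal, log2), each miR-497-5p over control, 1 point per gene, with genes called higher in red and lower in blue. On the dashed line both effects are equal, so distance above or below it is the difference. Called genes lie away from the line, mostly up and to the left (247 higher) or down and to the right (143 lower), and 118 genes lie outside the axes, of which 7 were called higher and 4 lower.

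The number of calls depended on how the larger spread of the pull-down was treated. With 1 dispersion shared by both assays, 168 genes were higher and 61 lower, 213 of them also called with a trend per assay and 16 not, while 177 were called with the trend per assay alone. With a separate edgeR fit per assay, 161 were higher and 60 lower, and 172 genes were called by all 3 treatments, 128 of them higher and 44 lower. Genes called with the trend per assay and not with the shared dispersion had a median level of 54.5 CPM and took a median of 87.3% of their variance from the pull-down, against 13.4 CPM and 71.6% for those called with the shared dispersion alone. Scaling moved the balance of directions. Of the calls 63.3% were higher with TMM, 40.2% with RLE size factors (214 higher and 319 lower) and 91.5% with library totals (473 higher and 44 lower), which also moved the median of all genes to 0.13. Single libraries moved it too. Leaving out pull-down control replicate 3 gave 339 lower genes, and leaving out pull-down miR-497-5p replicate 1 gave 402 higher and 227 lower. Fewer were higher without pull-down control replicate 1 (134), pull-down control replicate 2 (122), RNA-seq control replicate 2 (147) or pull-down miR-497-5p replicate 2 (148). Fewer were lower without RNA-seq control replicate 2 (50), pull-down miR-497-5p replicate 3 (68), pull-down control replicate 2 (72), RNA-seq control replicate 3 (74), RNA-seq miR-497-5p replicate 3 (85) or pull-down miR-497-5p replicate 2 (95).

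The foremost higher genes were cell cycle genes with sites for the seed, and they combined a higher pull-down with a lower amount in RNA-seq. CCNE1 (chr19:29811898-29824308, ENSG00000105173) encodes cyclin E1, which activates CDK2 at the start of DNA replication, and holds a pair of 8mers. It had 64.7, 48.6 and 65.5 CPM in the miR-497-5p pull-down and 26.1, 18.9 and 20 CPM in the control pull-down. In RNA-seq it had 13.8, 13.9 and 15.7 CPM with miR-497-5p and 24.1, 23.9 and 23.8 CPM with the control. All miR-497-5p pull-down libraries were above and all miR-497-5p RNA-seq libraries below their controls, with no overlap in either assay. The difference was 2.18 ± 0.19 (adjusted p 2.42e-08), from a pull-down effect of 1.46 ± 0.16 and an RNA-seq effect of -0.72 ± 0.09.

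WEE1 (chr11:9573681-9593457, ENSG00000166483), the kinase that holds CDK1 inactive before mitosis, holds an 8mer and a 7mer-m8. It had 70.3, 48.9 and 43.3 CPM in the miR-497-5p pull-down and 19.2, 16.8 and 13.1 CPM in the control pull-down. RNA-seq gave 23.8, 25.9 and 27.7 CPM with miR-497-5p and 33.4, 37.9 and 36.7 CPM with the control. The groups were again apart in both assays, although the miR-497-5p pull-down libraries varied among themselves, with an SD of 14.2 CPM against 1.94 CPM in RNA-seq with the same mimic. WEE1 had a difference of 2.20 ± 0.21 (adjusted p 1.03e-07) and took 90.1% of its variance from the pull-down. With 1 shared dispersion its adjusted p was 3.37e-04, and the separate fits gave 1.57e-05.

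Other genes of cell cycle entry had smaller differences, and of these CDK6 passed the test in both assays. CDK6, a kinase that phosphorylates RB with D cyclins, had a difference of 1.47 ± 0.22 (adjusted p 3.90e-04). Its pull-down values were uneven, at 77.9, 42.1 and 53.5 CPM with miR-497-5p and 30.7, 30.5 and 35.8 CPM with the control. Its RNA-seq values were 28.7, 31.5 and 35.4 CPM with miR-497-5p and 45.7, 49.4 and 53.9 CPM with the control, lower with miR-497-5p and without overlap. E2F3, a transcription factor of replication genes with 1 8mer, had 32.6, 23.3 and 32.2 CPM in the miR-497-5p pull-down and 13, 14.8 and 13.6 CPM in the control pull-down, and a difference of 1.35 ± 0.22 (adjusted p 4.90e-04). The RNA-seq effect of E2F3, -0.26 ± 0.10, did not pass (adjusted p 0.153), and its RNA-seq groups overlapped. CDC25A, the phosphatase that activates CDK2, was called by a narrow margin (0.74 ± 0.20, adjusted p 0.0469), and there the RNA-seq effect of -0.60 was the larger part, beside a pull-down effect of 0.14 ± 0.18 that did not pass (adjusted p 0.795), with groups that overlapped. The call of CDC25A was lost with 1 shared dispersion (0.112), the separate fits (0.0992), limma's voom (0.0888), DESeq2 (0.0652) and RLE size factors (0.0593). It was kept without pull-down control replicate 1 or pull-down miR-497-5p replicate 2 and lost without any other single library, with an adjusted p of up to 0.159 without pull-down control replicate 2. Of 28 cyclins, CDKs, E2Fs and related genes of G1 and S phase, 4 were higher and none was lower, with a median of 0.10. The 4 were CCNE1, CDK6, E2F3 and CDC25A. Of all genes tested 1.45% were higher and 0.837% lower.

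Of 20 genes of G2 and mitosis, WEE1, ANLN and KIF23 were higher and none was lower, against 1.45% and 0.837% of all genes tested. The median difference of the 20 genes was -0.15. ANLN, which encodes the cytokinesis scaffold anillin and holds a 7mer-A1, had a difference of 0.81 ± 0.15 (adjusted p 0.00381). KIF23, a kinesin of the central spindle with 1 8mer, had 0.79 ± 0.19 (adjusted p 0.0251). KIF23 lost its call with limma's voom (0.0638), with the separate fits (0.0502) and without pull-down control replicate 1, 2 or 3, RNA-seq control replicate 2, RNA-seq miR-497-5p replicate 1 or 3, or pull-down miR-497-5p replicate 2, with an adjusted p of up to 0.0943. PKMYT1, the other kinase that inhibits CDK1 and a gene the series names, has no site in its 3′ UTR. It had 48.4, 46.2 and 49.2 CPM in the miR-497-5p pull-down and 67.6, 65.4 and 57.3 CPM in the control pull-down. In RNA-seq both groups were alike, at 35.9, 34.3 and 33.1 CPM with miR-497-5p and 34, 35.3 and 33 CPM with the control. Its difference was -0.42 ± 0.14 and was not called (adjusted p 0.119), though it was with DESeq2 (adjusted p 0.0148) and without pull-down control replicate 3 (adjusted p 0.0368).

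Of the other genes that the series names, none was called higher. CCND1, which encodes cyclin D1 and holds 1 8mer, had 706, 590 and 609 CPM in the miR-497-5p pull-down and 786, 781 and 659 CPM in the control pull-down, with overlap. In RNA-seq it had 590, 562 and 587 CPM with miR-497-5p and 705, 742 and 745 CPM with the control, lower with miR-497-5p and without overlap (-0.33 ± 0.05, adjusted p 6.99e-05). Its difference was 0.11 ± 0.10 (adjusted p 0.646) and became -0.02 without pull-down control replicate 3. CDK4, the partner kinase of D cyclins, had -0.14 ± 0.11 (adjusted p 0.59). VEGFA, a growth factor for blood vessels with 1 8mer, had 16.9, 17.4 and 20.3 CPM in the miR-497-5p pull-down and 6.22, 12 and 11.5 CPM in the control pull-down. Those groups did not overlap, and RNA-seq was level at 17.9 to 19.3 CPM with miR-497-5p and 17.3 to 19.1 CPM with the control. The difference of VEGFA, 0.84 ± 0.25, missed the threshold (adjusted p 0.068), and passed it with library totals (0.0295), with no filter on low counts (0.0474) and without pull-down miR-497-5p replicate 1 (0.0495). GAPDH, a glycolysis enzyme with no site, was lower by a narrow margin (-0.41 ± 0.10, adjusted p 0.0258), at 3378, 3203 and 3230 CPM in the miR-497-5p pull-down against 4486, 4419 and 3213 CPM in the control pull-down. Control replicate 3 lay with the miR-497-5p libraries. The call of GAPDH was lost with 1 shared dispersion (adjusted p 0.133), with the separate fits (0.0883), with limma's voom (0.0638), with TMM within each assay (0.052), with library totals (0.169), and without pull-down control replicate 1 or 2, RNA-seq control replicate 1 or 2, pull-down miR-497-5p replicate 2 or 3, or RNA-seq miR-497-5p replicate 3.

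**Figure D3:**
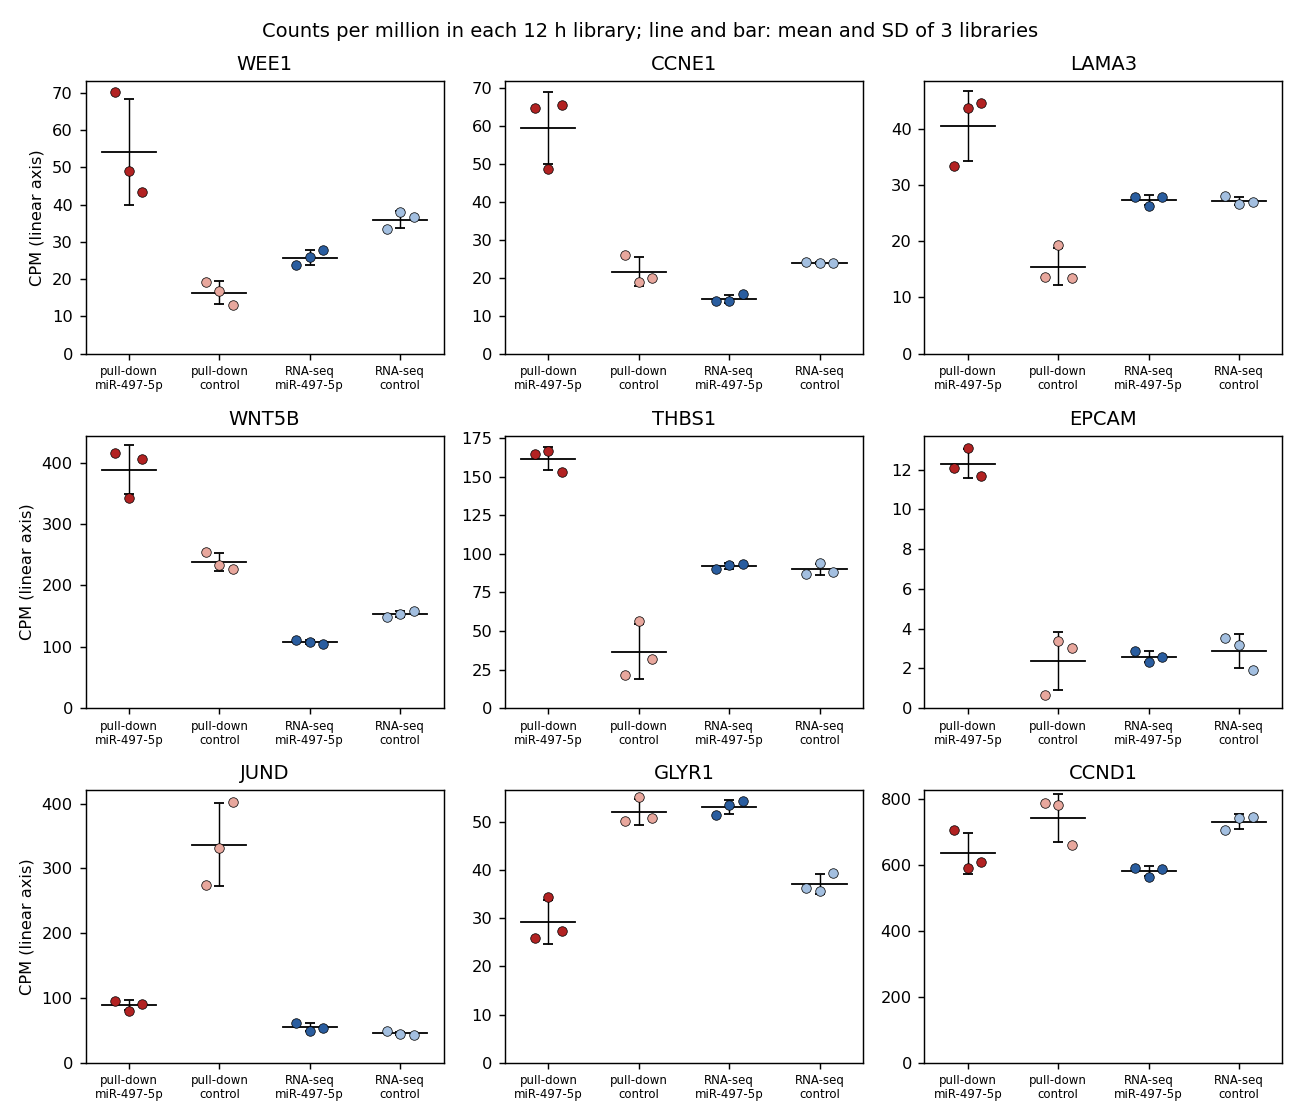
CPM (vertical, linear from 0) of 9 genes in each of the 12 libraries, with points for libraries, lines for means and bars for the SD of 3 libraries, pull-down in red and RNA-seq in blue, and control libraries in the lighter shade. WEE1, CCNE1 and WNT5B are higher in the miR-497-5p pull-down and lower in RNA-seq with miR-497-5p, LAMA3, THBS1 and EPCAM are higher in the miR-497-5p pull-down with RNA-seq groups that overlap, JUND and GLYR1 are lower in the miR-497-5p pull-down, and CCND1 is lower in RNA-seq with miR-497-5p while its pull-down groups overlap.

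A list of 44 published targets of the miR-15/16 family held 13 higher genes and no lower one. Of all genes tested 1.45% were higher and 0.837% lower. The median difference of the list was 0.46 against 0.01 over all genes. Beside the cell cycle genes already given, its higher genes included FGF2, SMURF1, SMURF2, HMGA2, ARL2 and ANLN. FGF2, a fibroblast growth factor with 3 8mers, had 146, 119 and 141 CPM in the miR-497-5p pull-down and 83.2, 93.6 and 109 CPM in the control pull-down, and a difference of 0.91 ± 0.14 (adjusted p 3.90e-04). HMGA2, a chromatin protein of embryonic and tumour cells, had a difference of 0.75 ± 0.14 (adjusted p 0.0041), with a pull-down effect of 0.74 and an RNA-seq effect of -0.01. ARL2, a small GTPase with 2 8mers, had a difference of 0.74 ± 0.14 (adjusted p 0.00381, and 0.0508 with 1 shared dispersion). Its values in the pull-down overlapped, at 345, 236 and 237 CPM with miR-497-5p and 189, 204 and 242 CPM with the control.

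The next genes all hold an 8mer. CDC37L1, a relative of the HSP90 cochaperone CDC37, had 26.9, 21.7 and 27.6 CPM in the miR-497-5p pull-down and 7.18, 6.87 and 9.95 CPM in the control pull-down. Its difference was 2.10 ± 0.24 (adjusted p 4.64e-06). SPRED1, an inhibitor of RAS signalling with 2 8mers, had a difference of 1.40 ± 0.18 (adjusted p 2.07e-05). CDC42SE2, a small effector of the GTPase CDC42, had 87.1, 62.3 and 64.7 CPM in the miR-497-5p pull-down, while its control pull-down libraries stood at 39, 38.8 and 39 CPM. That gave 1.22 ± 0.16 (adjusted p 4.68e-05). EPB41L4B, a FERM domain protein of the cell cortex, owed most of its difference of 1.16 ± 0.16 (adjusted p 4.77e-05) to RNA-seq, at 40.9, 44.4 and 43.3 CPM with miR-497-5p and 69.2, 70.3 and 69.3 CPM with the control. Its pull-down groups overlapped, with an effect of 0.46 ± 0.14. RBMS1, an RNA-binding protein, had 0.83 ± 0.12 (adjusted p 1.22e-04).

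WNT5B, a secreted ligand of WNT receptors, holds 1 7mer-m8 in its 3′ UTR. It had 416, 343 and 406 CPM in the miR-497-5p pull-down and 254, 233 and 226 CPM in the control pull-down. In RNA-seq it had 111, 107 and 105 CPM with miR-497-5p and 148, 153 and 158 CPM with the control. Neither pair of groups overlapped, and the difference was 1.22 ± 0.11 (adjusted p 5.13e-08). HSPA8, the constitutive HSP70 chaperone, holds a 7mer-A1 in its 3′ UTR and an 8mer in its coding sequence. It had 466, 352 and 391 CPM in the miR-497-5p pull-down and 204, 225 and 244 CPM in the control pull-down, and a difference of 0.97 ± 0.10 (adjusted p 1.32e-06).

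In the TGF-beta pathway 4 of 26 genes were higher, against 1.45% of all genes, and none was lower, with a median of 0.07 against 0.01. SMURF1, a ubiquitin ligase that marks SMAD proteins and receptors for degradation, had a difference of 1.00 ± 0.18 (adjusted p 0.00295), with 39.3, 27 and 37.5 CPM in the miR-497-5p pull-down and 21.3, 19.7 and 19.1 CPM in the control pull-down. SMURF2, its close relative, had a smaller difference of 0.44 ± 0.10 (adjusted p 0.019) that came from RNA-seq, where its effect was -0.40 ± 0.05 beside 0.04 ± 0.09 in the pull-down. SMURF2 lost its call with the separate fits (0.0626) and without pull-down control replicate 2 (adjusted p 0.0567) or pull-down control replicate 3 (0.053). TGFB2 was called by a narrow margin (0.93 ± 0.25, adjusted p 0.0446). Its call was lost with limma's voom (0.0787), the separate fits (0.0705) and RLE size factors (0.0506). It was kept without pull-down miR-497-5p replicate 1 or RNA-seq miR-497-5p replicate 3 and lost without any other single library. THBS1, the matrix protein thrombospondin 1 that activates latent TGF-beta, holds a 6mer only. It had 165, 167 and 153 CPM in the miR-497-5p pull-down and 21.4, 56.3 and 31.8 CPM in the control pull-down, with a difference of 2.11 ± 0.31 (adjusted p 0.00876) and RNA-seq groups that overlapped. Of a list of 25 receptor tyrosine kinases, ligands and related receptors 4 were higher, among them EGFR at 0.56 ± 0.14 (adjusted p 0.0314). IGF2R, in the list as a related receptor that takes up IGF2 for degradation, was another, at 0.93 ± 0.18 (adjusted p 0.00515). EGFR lost its call with limma's voom (0.0592) and the separate fits (0.0882). It kept it without RNA-seq control replicate 1, pull-down control replicate 3, pull-down miR-497-5p replicate 1 or RNA-seq miR-497-5p replicate 2, and lost it without any of the other 8 libraries, with an adjusted p of up to 0.115.

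Among 27 genes of laminins, integrins and hemidesmosomes, 8 were higher, against 1.45% of all genes tested, and none was lower, with a median difference of 0.47, a median pull-down effect of 0.40 and a median RNA-seq effect of -0.07. LAMA3 and LAMB3, chains of laminins that anchor epithelia to the basement membrane, hold no site in the 3′ UTR. LAMA3 had 33.4, 43.7 and 44.6 CPM in the miR-497-5p pull-down and 13.7, 19.3 and 13.5 CPM in the control pull-down (1.38 ± 0.19, adjusted p 4.68e-05). In RNA-seq it stood at 26.3 to 27.9 CPM with miR-497-5p and 26.6 to 28 CPM with the control. LAMB3 had a difference of 1.01 ± 0.15 (adjusted p 2.98e-04) and LAMA5 one of 0.87 ± 0.16 (adjusted p 0.00198). FN1, the matrix protein fibronectin, had 789, 789 and 773 CPM in the miR-497-5p pull-down and 86.8, 271 and 168 CPM in the control pull-down. The miR-497-5p pull-down libraries were close together and the control pull-down libraries far apart. In RNA-seq it had 262, 263 and 280 CPM with miR-497-5p and 289, 265 and 238 CPM with the control, which overlap. The difference of FN1, 2.14 ± 0.40 (adjusted p 0.0365), was lost with 1 shared dispersion (0.0566), with the separate fits (0.147), and without any single library other than pull-down control replicate 1 or 2, with an adjusted p of up to 0.0835 without RNA-seq control replicate 2.

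A set of 25 genes of epithelial surfaces and junctions, chosen after their values were seen, also held several higher genes. EPCAM, CLDN1, CLDN7, GRHL2, CFTR, MAL2, CGN and CD24 were higher and no member was lower, with a median difference of 2.10. Of all genes tested 1.45% were higher and 0.837% lower. The summed level of the set was 737, 796 and 753 CPM in the miR-497-5p pull-down, 548, 610 and 474 CPM in the control pull-down, 418, 383 and 392 CPM in RNA-seq with miR-497-5p and 418, 410 and 358 CPM in RNA-seq with the control. EPCAM, an adhesion molecule of epithelia, had 12.1, 13.1 and 11.7 CPM in the miR-497-5p pull-down and 0.673, 3.37 and 3.02 CPM in the control pull-down (2.54 ± 0.48, adjusted p 0.00421). MAL2, a protein of apical transport, had 34.7, 34.7 and 32.1 CPM in the miR-497-5p pull-down and 4.32, 10.8 and 10.4 CPM in the control pull-down (2.10 ± 0.28, adjusted p 9.58e-05). For both genes the 3 miR-497-5p pull-down libraries were close together and above every library of the other 3 groups. CFTR, a chloride channel, had 10.5, 6.84 and 5.5 CPM in the miR-497-5p pull-down and 0.0561, 0.465 and 0.355 CPM in the control pull-down (5.67 ± 0.74, adjusted p 2.73e-05). CD24, a surface sialoglycoprotein, had a difference of 1.75 ± 0.25 (adjusted p 3.90e-04). Of the 30 squamous markers 29 had a difference above 0, with a median of 2.19, and TGM3 alone was called (higher). Their summed levels, given above, overlapped between the mimics in both assays, and the part of squamous or other epithelial RNA in these results was not tested.

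Among the other higher genes, OLFML2A, CHAC1 and BTG2 kept their calls when any of the 12 libraries was left out. OLFML2A, a secreted olfactomedin protein, had 20, 26.6 and 25.5 CPM in the miR-497-5p pull-down and 2.13, 6.69 and 2.96 CPM in the control pull-down, a difference of 2.53 ± 0.38 (adjusted p 4.06e-04). CHAC1, an enzyme that degrades glutathione and holds 1 8mer, had 29.5, 20.2 and 25 CPM in the miR-497-5p pull-down and 8.86, 8.15 and 8.47 CPM in the control pull-down (1.64 ± 0.26, adjusted p 4.90e-04). BTG2, an antiproliferative partner of deadenylases that holds 2 7mer-m8 sites, had 1.32 ± 0.25 (adjusted p 0.00321). TGM3 and LINC02487 rested on low counts and few libraries. TGM3, an epidermal transglutaminase, was called higher with 3.23, 7.48 and 0.256 CPM in the miR-497-5p pull-down and 0.112, 0 and 0.592 CPM in the control pull-down, which overlap. It lost its call with limma's voom (adjusted p 0.311) and without pull-down control replicate 1 (0.0893) or RNA-seq miR-497-5p replicate 3 (0.0516). The long noncoding RNA LINC02487 was called higher with counts in 1 miR-497-5p pull-down library, 2.13 CPM in replicate 2, and none in RNA-seq with miR-497-5p. In RNA-seq with the control it had 1.39, 1.12 and 0.755 CPM. Its adjusted p was 1 without that pull-down library, 0.0551 without pull-down control replicate 2, 0.0524 with 1 shared dispersion and 0.0679 with limma's voom.

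JUND was the gene with the smallest adjusted p in either direction, and it was lower. It encodes JunD, an AP-1 transcription factor from a short GC-rich gene without introns (chr19:18279760-18281622, ENSG00000130522), and has no site in its 3′ UTR. It had 94.6, 80.3 and 90.9 CPM in the miR-497-5p pull-down and 275, 331 and 403 CPM in the control pull-down. RNA-seq gave 61.4, 49.1 and 53.2 CPM with miR-497-5p and 48.1, 44.2 and 43.1 CPM with the control. The control pull-down alone stood far above the other 3 groups, and the difference was -2.20 ± 0.16 (adjusted p 5.59e-09). Of 16 AP-1 genes and of 24 short GC-rich transcription factor genes, which share it, JUND was the only gene called. No member of either list was higher. Of all genes tested 0.837% were lower and 1.45% higher.

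Among the other lower genes, GLYR1, GTPBP2 and CLCF1 hold no site in the 3′ UTR, and ELF4, NCKAP1 and SOCS6 hold one. GLYR1, a nucleosome-binding protein, had 25.9, 34.5 and 27.4 CPM in the miR-497-5p pull-down and 50.3, 55.2 and 50.9 CPM in the control pull-down. In RNA-seq the order was the opposite, with 51.6, 53.7 and 54.4 CPM with miR-497-5p and 36.3, 35.7 and 39.5 CPM with the control, and the difference was -1.35 ± 0.16 (adjusted p 5.00e-06). ELF4, an ETS transcription factor with 1 7mer-m8, had 47.6, 34.6 and 44.8 CPM in the miR-497-5p pull-down and 70.6, 74.8 and 107 CPM in the control pull-down (-1.36 ± 0.17, adjusted p 1.16e-05). GTPBP2, a GTPase that rescues stalled ribosomes, had -1.40 ± 0.23 (adjusted p 5.18e-04). SOCS6, an adaptor that restrains receptor signalling, was lower despite an 8mer, with 28, 26.1 and 31.2 CPM in the miR-497-5p pull-down and 40.7, 52.2 and 68.4 CPM in the control pull-down. Its RNA-seq values were 21, 22.8 and 22.5 CPM with miR-497-5p and 18.4, 18.6 and 18.6 CPM with the control, without overlap in either assay. The difference of SOCS6 was -1.17 ± 0.18 (adjusted p 3.90e-04). NCKAP1, a subunit of the WAVE complex with 2 7mer-m8 sites in a very long 3′ UTR, had -1.02 ± 0.12 (adjusted p 5.00e-06). CLCF1, a cytokine of the IL-6 family, had 15.6, 22.2 and 15.1 CPM in the miR-497-5p pull-down and 34.8, 40 and 38.9 CPM in the control pull-down (-1.08 ± 0.20, adjusted p 0.00305).

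Cytosolic ribosomal protein genes were the list with the most lower calls. Of 79 tested, 27 were lower and 2 were higher, against 0.837% lower and 1.45% higher of all genes tested. Only those 2 had a difference above 0. The median was -0.29, made of a median pull-down effect of -0.09 and a median RNA-seq effect of 0.21. RPSA, which encodes a protein of the small subunit, had 1412, 1300 and 1313 CPM in the miR-497-5p pull-down and 1523, 1569 and 1835 CPM in the control pull-down (-0.43 ± 0.09, adjusted p 0.00559). RPS6 was an exception, at 4162, 3563 and 3905 CPM in the miR-497-5p pull-down and 2930, 2776 and 2587 CPM in the control pull-down, with a difference of 0.42 ± 0.08 (adjusted p 0.00567). RPLP0, a protein of the ribosomal stalk, was the other, at 0.56 ± 0.13 (adjusted p 0.0305). RPL13, of the large subunit, was lower although its longest annotated 3′ UTR holds an 8mer (-0.45 ± 0.09, adjusted p 0.00567). The direction of the list held under every scaling tried, with a median of -0.17 and 10 lower genes with library totals and of -0.35 and 46 lower genes with RLE size factors. Ribosomal protein genes have many processed pseudogenes, so their counts are uncertain in size. The 13 mitochondrially encoded messages, which have no nuclear 3′ UTR, gave no call and a median of -0.22.

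The remaining lists are read against the 1.45% of all genes that were higher and the 0.837% that were lower. Of 30 genes of Argonaute, TNRC6 and deadenylation none was called, with a median of 0.08. SPRED1 and BTG2 were the only calls, both higher, among 29 immediate early and ERK feedback genes (median -0.01), and CHAC1 the only one, higher, among 20 ATF4 stress genes (median -0.07). Of 27 WNT and Frizzled genes WNT5B, FZD7 and APC were higher (median 0.25), and of 21 Hippo genes LATS2 (0.15). Of 21 cytokine genes TNFAIP3, an inhibitor of NF-kappaB, was higher and CLCF1 lower (0.33). FZD7 kept its call only without RNA-seq control replicate 1 or miR-497-5p replicate 3 of either assay, and APC only without pull-down miR-497-5p replicate 1 or RNA-seq miR-497-5p replicate 2. LATS2 lost its call without control replicate 1 or 2 of either assay or pull-down miR-497-5p replicate 2, and TNFAIP3 without pull-down control replicate 1 (adjusted p 0.0562). Of 16 snoRNA host genes SNHG6 was lower (median -0.23), and not without RNA-seq control replicate 1 or 2, pull-down miR-497-5p replicate 2 or miR-497-5p replicate 3 of either assay. No call fell among 12 nuclear retained RNAs (0.20) or 25 chaperone and translocon genes of the endoplasmic reticulum (0.06). Of 10 mesothelial markers TJP1 was higher, kept only without pull-down miR-497-5p replicate 3, with a median of -0.12. None of 4 leukocyte, 3 endothelial and 4 fibroblast markers was called.

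Site classes ordered the differences of all genes. Of 732 tested genes with an 8mer, 49 were higher and 6 lower, with a median difference of 0.21. Of 550 genes with a 7mer-A1 at best, 20 were higher and 2 lower, with a median of 0.13. The 2943 genes with a 7mer-m8 held 58 higher and 25 lower genes at a median of 0.06, and the 2444 with a 6mer held 35 and 18 at a median of 0.01. Among 7451 genes with none of the 4 words 81 were higher and 86 lower, with a median of -0.02. As shares, 6.69% of 8mer genes and 1.09% of genes without a site were higher, against 1.72% of the 14120 genes with a 3′ UTR. In the other direction, 20.2% of the higher genes, 4.38% of the lower genes and 5.18% of the tested genes with a 3′ UTR held an 8mer. Genes without a 3′ UTR site but with an 8mer or 7mer-m8 in the coding sequence were higher in 2.11% and lower in 0.676% of 2367 cases.

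**Figure D4:**
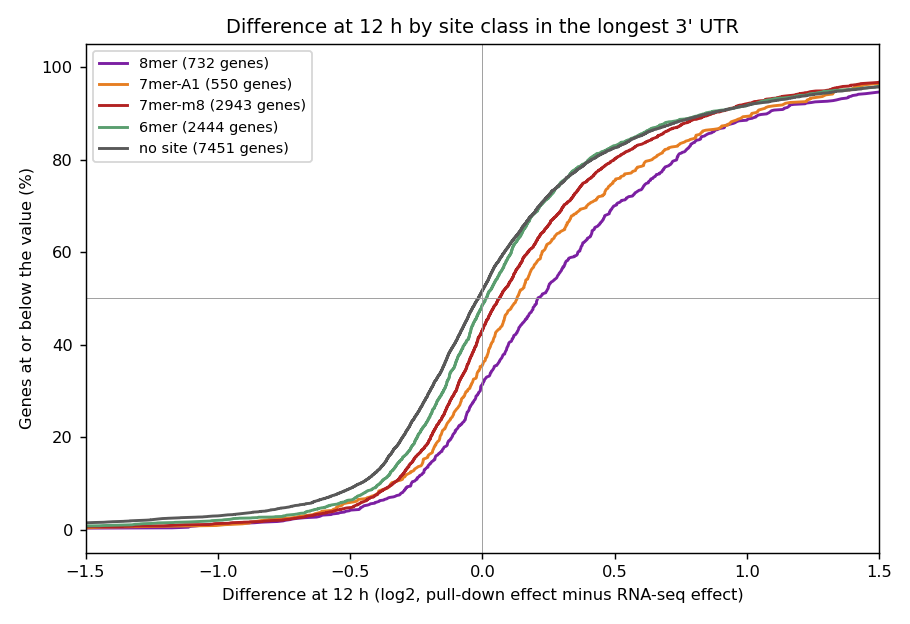
Cumulative share of genes (vertical, %) by difference at 12 h (horizontal, log2), with 1 line per best site class in the longest 3′ UTR. The line of the 732 genes with an 8mer lies furthest to the right (median 0.21), followed by 7mer-A1 (0.13), 7mer-m8 (0.06), 6mer (0.01) and no site (-0.02), and the lines meet at the upper end.

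The 8mer class gained on both sides of the difference. Relative to genes without a site and to the mean of the controls of its assay, its median level was 0.0859, 0.0634 and 0.106 higher (log2) in the 3 miR-497-5p pull-down libraries, against -0.0067, 0.00966 and 0.00108 in the control pull-down libraries. In RNA-seq it was -0.168, -0.112 and -0.114 with miR-497-5p and -0.0112, -0.00241 and 0.00698 with the control. Every library with miR-497-5p lay apart from every control library of its assay, in opposite directions in the pull-down and in RNA-seq. For the 7mer-m8 class the fall was seen in RNA-seq, at -0.0847, -0.0729 and -0.0719 with miR-497-5p, while the pull-down libraries with miR-497-5p (-0.00368, -0.00498 and 0.022) overlapped those with the control (-0.0142, 0.00609 and -0.00327). The difference between the 8mer and no-site medians was 0.23. It was 0.22 to 0.27 when any library was left out, the filter was changed or the 3′ UTR of the canonical transcript was used. With the other scalings it stayed at 0.23. A change of scaling moves all genes nearly alike and cancels between classes, so it cannot test this value.

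The length of genes moved with the difference as well. With genes divided into 5 equal bins by total exon length, from short to long, the median difference was -0.16, -0.08, 0.01, 0.06 and 0.16, and the share of higher genes was 0.322%, 0.878%, 1.38%, 1.7% and 2.96%. Longer 3′ UTRs hold more sites, with a median of 3423 bases for 8mer genes and 871 bases for genes without a site. Within the shortest tertile of 3′ UTRs the median difference was 0.16 for 47 8mer genes and -0.10 for genes without a site. In the middle tertile it was 0.28 for 168 8mer genes and 0.03 for genes without a site, and in the longest it was 0.20 for 517 8mer genes and 0.09 for genes without a site. The 8mer median was thus above that of genes without a site in each tertile. For 7mer-m8 genes this held in the longest tertile (0.12) and in the shortest (-0.08), and not in the middle one (0.02). Ribosomal protein genes and JUND are short, and the laminin genes are long and hold no 3′ UTR site, and the part of length in their differences was not tested.

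Some genes were called under 1 treatment of the spread and not under another. ITGB4, an integrin of hemidesmosomes, had 30.6, 28.8 and 30.5 CPM in the miR-497-5p pull-down and 4.43, 9.08 and 8.89 CPM in the control pull-down. In RNA-seq it had 6.75, 4.37 and 3.47 CPM with miR-497-5p and 8.6, 7.34 and 3.3 CPM with the control. Here the RNA-seq libraries varied more than is usual at their level, only 21% of the variance came from the pull-down, and the difference of 2.41 ± 0.66 was not called (adjusted p 0.111) but passed with 1 shared dispersion (0.0199). MYH14, a nonmuscle myosin, was of the same kind, with 24.3, 23.5 and 22.6 CPM in the miR-497-5p pull-down and 1.29, 5.29 and 6.52 CPM in the control pull-down (2.77 ± 0.70, adjusted p 0.0812, and 0.0304 with 1 shared dispersion). ECI1, an enzyme of fatty acid oxidation, and GPS2, a subunit of a corepressor complex, were not called with a trend per assay, at -0.91 ± 0.26 and -1.40 ± 0.43, and passed with 1 shared dispersion (0.03 for ECI1 and 0.0304 for GPS2). All 4 genes also passed with DESeq2, MYH14, ECI1 and GPS2 with no filter on low counts, and MYH14 with the separate fits (0.00984). In RNA-seq with miR-497-5p replicate 1 stood above the other replicates in both, at 41.5 against 30.4 and 31.3 CPM for ECI1 and at 42 against 30.9 and 26.7 CPM for GPS2. ITGAV, an integrin that binds fibronectin, was called with a trend per assay (0.92 ± 0.19, adjusted p 0.00795) and not with the shared dispersion (0.0542), and 92.6% of its variance came from the pull-down. Its call was also lost without pull-down control replicate 1 (adjusted p 0.0522).

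The same difference was computed for the 12 libraries at 72 h, which share no library with those at 12 h, in 1 fit over 24 libraries with a dispersion trend per assay and time. Of 18766 genes tested, 367 (1.96%) had a higher and 929 (4.95%) a lower difference at 12 h than at 72 h, 6.91% in all. At 72 h itself 1454 genes were higher (7.75%) and 1030 lower (5.49%). Of the 247 genes higher at 12 h, 45 were higher at 72 h (18.2% of them and 3.09% of the genes higher at 72 h) and 4 were lower. Of the 143 lower at 12 h, 40 were lower at 72 h (28% of them and 3.88% of the genes lower at 72 h) and 25 were higher. The median of the 247 genes was 1.05 at 12 h and 0.30 at 72 h, where the first value is that by which they were chosen.

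CCNE1 had 2.14 ± 0.20 at 12 h and 1.73 ± 0.20 at 72 h (adjusted p of the change between times 0.467), and E2F3 had 1.31 ± 0.26 at 12 h and 1.13 ± 0.16 at 72 h (0.846). WEE1 had 2.16 ± 0.22 at 12 h and 1.20 ± 0.44 at 72 h (0.281), and the larger error at 72 h limits that comparison. CDC37L1 was higher at 12 h, with 2.07 ± 0.27 at 12 h and 0.47 ± 0.25 at 72 h (adjusted p 0.0021). JUND was lower at 12 h than at 72 h, with -2.23 ± 0.17 at 12 h and 0.05 ± 0.10 at 72 h (2.20e-09). ELF4 had -1.39 ± 0.18 at 12 h and 0.41 ± 0.14 at 72 h (4.21e-08), and FAM107B had -0.88 ± 0.14 at 12 h and 0.10 ± 0.08 at 72 h (2.05e-05). Of the laminin and epithelial genes described, LAMA3, CLDN1, CFTR and CD24 were higher at 12 h than at 72 h, LAMA3 with 1.35 ± 0.21 at 12 h and -0.56 ± 0.33 at 72 h (5.55e-04), CLDN1 with 1.21 ± 0.24 and -0.70 ± 0.28 (2.26e-04) and CFTR with 5.64 ± 0.72 and -0.87 ± 0.98 (4.04e-04). CD24 had 1.72 ± 0.24 at 12 h and -1.30 ± 0.76 at 72 h (0.0134), and did not pass without pull-down control 72 h replicate 1 (0.349). LAMB3 (adjusted p 0.212), MAL2 (0.161) and EPCAM (0.991) did not pass that test, nor did LAMA5, with 0.84 ± 0.18 at 12 h and 0.61 ± 0.15 at 72 h (0.698).

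**Figure D5:**
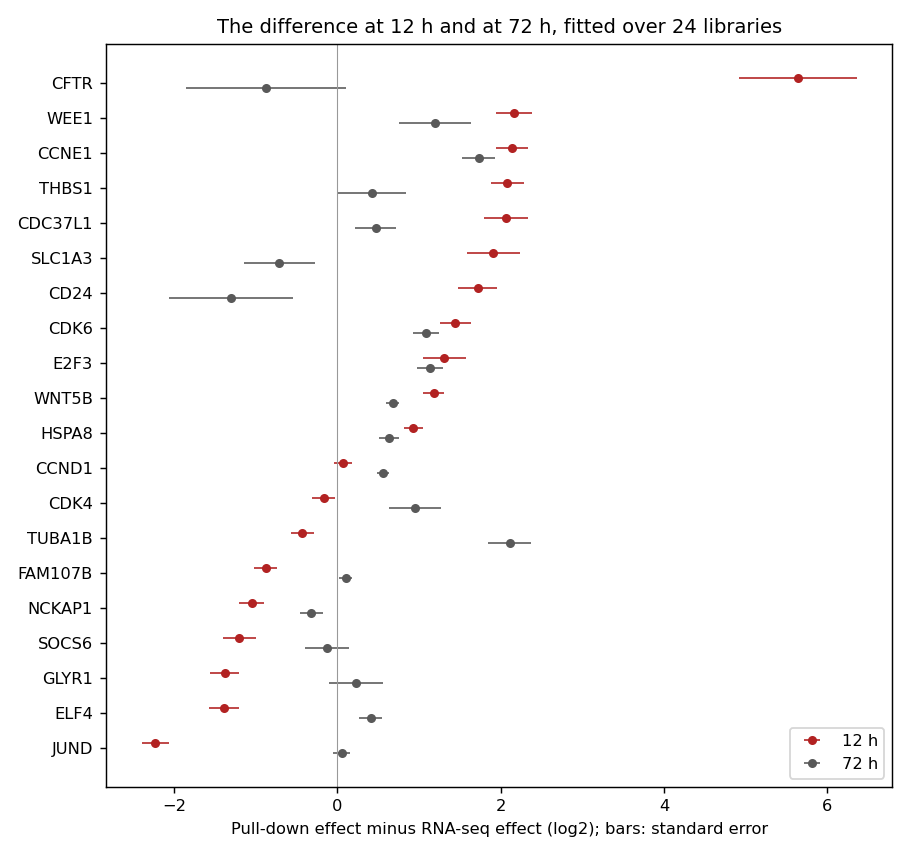
Difference of 20 named genes (log2, pull-down effect minus RNA-seq effect) at 12 h in red and at 72 h in grey, with bars for the standard error from the fit over 24 libraries. CCNE1, CDK6 and E2F3 lie to the right of 0 at both times, while JUND, ELF4 and FAM107B lie far to the left at 12 h and near or above 0 at 72 h.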

How the data were processed

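The deposited files hold, for each library, whole-number read counts per gene that the authors made. Per the submitters' processing notes, Trimmomatic 0.36, STAR 2.5.2b and featureCounts of Subread 1.5.2 were used with GRCh38. The use of strand in counting is not stated there, so reads of genes that overlap on opposite strands may be shared. Symbols and 3′ UTRs came from GENCODE 44 on GRCh38, which held 56410 of 57500 identifiers (98.1%).

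Counts of the 12 libraries at 12 h were fitted with edgeR 4.0.16 (R 4.3.3), with TMM scaling, filterByExpr, no covariate, and a dispersion trend per assay in the robust quasi-likelihood test. Adjusted p-values are Benjamini-Hochberg over all genes tested. A fit over 24 libraries compared 12 h with 72 h. Alternatives used limma 3.58.1 and DESeq2 1.42.0. The main test, the shared dispersion, the separate fits, voom and the subtraction were tested on simulated data with 200 genes changed. The main test made 180 calls, 15 of them false, a larger share than the 0.05 threshold. Of its unchanged genes 5.39% had an unadjusted p under 0.05. The separate fits made 173 calls with 12 false, also above the threshold. The shared dispersion made 162 with 6 false, and voom 161 with 6 false. DESeq2 and the other replicate blocks were not tested in this way. The control mimic's sequence was not used here.

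The comparison, the lists and the tests were chosen with earlier results of these data known, and the epithelial set after its values were seen. Genes named are those the series names, the 10 largest called differences in each direction with a mean of at least 5 CPM, the 6 smallest adjusted p in each direction, up to 4 called genes of each list, 4 called under 1 treatment of the spread and not another, the 4 largest changes between times in each direction and 8 higher genes with an 8mer. From these 80 genes the text takes the larger part. HMGA2, RPLP0 and other list members named without a rank were added after their values were seen. Some genes that the rule names are not reported here.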

Additional observations from a re-analysis of the deposited data

Results flagged for a closer look

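The difference at 12 h was set against the difference at 72 h by the interaction contrast over 24 libraries (edgeR's quasi-likelihood test, Benjamini-Hochberg over 18766 genes), and 10 genes are given here that passed it and are either named by the series or among the largest changes between the times. JAK2, a kinase of cytokine receptors, had a change of 3.03, with 0.54 ± 0.41 at 12 h and -2.49 ± 0.71 at 72 h (adjusted p 0.0127), but its 12 h pull-down with miR-497-5p was uneven (4.88, 6.08 and 14.8 CPM), and the change was 2.38 without replicate 3 of that group (adjusted p 0.0516) and 2.48 without pull-down control 72 h replicate 1 (0.142). CD24 had 3.02, with 1.72 ± 0.24 at 12 h and -1.30 ± 0.76 at 72 h (0.0134), and 1.75 without pull-down control 72 h replicate 1 (0.349). ZNF597, a zinc finger gene, had 2.86 (0.00735), and 2.62 without pull-down control 72 h replicate 3 (0.0764). SLC1A3, a glutamate transporter, had 2.62, with 1.91 ± 0.32 at 12 h and -0.71 ± 0.44 at 72 h (8.28e-04).

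Lower at 12 h than at 72 h were TRIM8-DT, a long noncoding RNA, by -2.92 (4.23e-04), and PKD1P6, a pseudogene, by -2.81 (7.39e-04). HMGN2P5, another pseudogene, had -2.71 (0.0472) and lost its call without any of several libraries of either time, with an adjusted p of up to 0.125 without pull-down control 72 h replicate 1. TUBA1B, an alpha-tubulin with near-identical relatives, had -2.54, with -0.43 ± 0.14 at 12 h and 2.11 ± 0.26 at 72 h (1.54e-08). Counts of these pseudogenes and of TUBA1B are uncertain because similar copies can share reads. CCND1 had -0.49, with 0.07 ± 0.11 at 12 h and 0.56 ± 0.07 at 72 h (0.0099), and its adjusted p was 0.0514 without pull-down control 12 h replicate 1 and 0.0516 without pull-down miR-497-5p 12 h replicate 2. CDK4 had -1.12, with -0.17 ± 0.14 at 12 h and 0.95 ± 0.32 at 72 h (0.0349), and missed the threshold when any of 6 pull-down libraries was left out, with an adjusted p of up to 0.189 without pull-down miR-497-5p 72 h replicate 2.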

How the results depend on the processing

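Against 247 higher and 143 lower genes, the numbers were 161 and 60 with a separate edgeR fit per assay, 392 and 582 with DESeq2, 473 and 44 with library totals, and 114 and 50 with a replicate block within mimic. Higher genes were 150 with limma's voom and a variance group per assay. Lower genes were 61 with 1 shared dispersion, 319 with RLE size factors and 262 with a filter at a mean of 5 CPM. The causes were not tested. Leaving out each library in turn gave 122 to 402 higher and 50 to 339 lower genes. Replicate numbers did not meet the criterion for pairing, a correlation of deviations over 0.1 in every pair: 2 of 6 pairs of the same mimic and number passed it (-0.21 to 0.16), 4 of 18 pairs of the same number in any groups did (-0.27 to 0.44), and 1 of 12 libraries correlated best with its own number. A replicate block by number gave 205 higher and 128 lower genes. With a replicate block by subtraction of same-numbered libraries (limma), 0 genes were higher and 0 lower, with 1774 unadjusted p under 0.05. The subtraction also recovered no change made in simulated data. There each library was drawn independently, so the simulation cannot show how the subtraction behaves where same-numbered libraries share a culture. No conclusion about the stability of the calls is drawn from it. Of 66 named genes called, 46 kept their call when each library was left out, and none changed direction under any alternative run. The shared dispersion and the separate fits each ended 13 of the 66 calls, voom 12 and the block by number 8. The block within mimic ended 18. Among these were GAPDH, FN1, CDC25A, KIF23, SMURF2, TGFB2, LATS2, EGFR, FZD7, APC, SNHG6, TJP1 and TGM3. Among genes not called, leaving out libraries gave CCND1 -0.02 to 0.15 (lowest without pull-down control replicate 3) and JAK2 -0.07 to 0.95 (lowest without pull-down miR-497-5p replicate 3). The change between times of PKMYT1 was -0.49 to 0.19, and was 0.02 without pull-down control 72 h replicate 3 and 0.19 without pull-down miR-497-5p 72 h replicate 2. The counts of genes that changed between times stayed within 1.5 times in the alternatives run for them, at 279 to 509 higher and 705 to 1034 lower. Those alternatives were 1 shared dispersion, a replicate block by number and leaving out each library. Other scalings and filters, DESeq2 and voom were not run for this contrast, so its dependence on them is not known. Genes under 1 CPM had the largest standard errors, and the part of depth in this was not tested.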
